A study of Mus musculus with 3 samples.

Results

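Notch signalling genes were followed across 3 culture media in embryonic mouse kidneys. The genes are 2 ligands (Dll1 and Jag1), a glycosyltransferase that modifies the receptors (Lfng), 2 receptors (Notch1 and Notch2) and 4 transcriptional repressors that act as targets (Hes1, Hes5, Hey1 and Heyl). They were chosen by name, and each was read from the probe set that carries its symbol alone. All 9 were found, among 19938 genes measured in this way, and each had 1 such probe set. C57BL/6 mouse kidneys were dissected at embryonic day 11.5, laid on Transwell filters and cultured for 48 h. The media were serum-free DMEM with retinoic acid (retinoic acid), serum-free DMEM alone (serum-free) and DMEM with 10% fetal bovine serum (serum). Each medium had a single Affymetrix Mouse Gene 1.0 ST array, so there were 3 arrays and no replicates. No genetic change is named in the labels for any medium. Neither the dose of retinoic acid nor the number of kidneys behind an array is given in the sources used here.

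Notch receptors are membrane proteins that are cut when a ligand on a neighbouring cell binds them, and the freed inner part enters the nucleus and switches on genes together with the DNA-binding protein RBPJ. HES and HEY proteins are the usual readout of that step. In the developing kidney, the pathway is known for patterning the early nephron, where Dll1, Jag1, Lfng, Hes5 and Heyl are expressed in the renal vesicle and its derivatives and Notch2 is needed for proximal fates in the mouse. It also acts in endothelial and mural cells, which express Dll4, Notch4, Hey1, Hey2, Heyl and Nrarp in mouse vessels.

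Promoter windows show where sequences that RBPJ is known to bind lie at these genes. Windows of 300 bases, from 250 before to 50 after an annotated start, came from RefSeq (build GRCm38.p6) and were found for 6 of the 9 genes, with 2 windows for Dll1. The RBPJ core TGGGAA, searched on both strands, was present in 25.6% of all 32851 windows, and the longer form GTGGGAA, which contains the core, in 6.38%. The nuclear receptor half-site AGGTCA was present in 16.3%. Of the 6 genes with a window, Lfng and Hes5 held the RBPJ core, and Dll1, Jag1, Notch1 and Notch2 did not. Lfng and Dll1 are printed because their array values differed most among the genes with a window, Hes5 because its value did not differ, and Nrarp and Hey2, targets outside the 9 genes, because both were lower with retinoic acid. Capitals mark the motifs, and letters run 5′ to 3′ on the gene's strand.

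Lfng (chr5:140607091-140607390, plus strand): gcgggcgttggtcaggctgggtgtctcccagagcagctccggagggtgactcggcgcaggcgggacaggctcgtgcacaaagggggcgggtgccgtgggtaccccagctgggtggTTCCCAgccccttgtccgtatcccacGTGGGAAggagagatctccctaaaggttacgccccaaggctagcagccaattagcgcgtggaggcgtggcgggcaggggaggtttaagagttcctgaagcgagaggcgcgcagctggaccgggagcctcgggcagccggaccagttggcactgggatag
Hes5 (chr4:154960673-154960972, plus strand): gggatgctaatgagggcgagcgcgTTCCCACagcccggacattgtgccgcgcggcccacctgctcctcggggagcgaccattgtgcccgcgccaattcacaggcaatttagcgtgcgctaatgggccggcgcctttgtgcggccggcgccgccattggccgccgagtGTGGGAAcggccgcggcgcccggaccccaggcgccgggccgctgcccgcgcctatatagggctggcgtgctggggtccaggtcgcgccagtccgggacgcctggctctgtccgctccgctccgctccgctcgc
Nrarp (chr2:25180508-25180807, plus strand): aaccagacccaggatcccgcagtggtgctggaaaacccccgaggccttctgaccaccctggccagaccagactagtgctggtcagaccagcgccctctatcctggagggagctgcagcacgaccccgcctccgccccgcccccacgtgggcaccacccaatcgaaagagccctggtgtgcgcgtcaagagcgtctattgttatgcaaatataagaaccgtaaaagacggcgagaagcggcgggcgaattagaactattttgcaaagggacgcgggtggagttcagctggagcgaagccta
Hey2 (chr10:30842734-30843033, minus strand): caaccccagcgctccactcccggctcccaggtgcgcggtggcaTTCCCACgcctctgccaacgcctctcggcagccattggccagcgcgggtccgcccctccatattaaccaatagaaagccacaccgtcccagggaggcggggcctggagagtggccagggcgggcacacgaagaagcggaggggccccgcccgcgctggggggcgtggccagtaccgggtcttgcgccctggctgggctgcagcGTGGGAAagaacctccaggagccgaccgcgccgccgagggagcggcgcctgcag
Dll1 (chr17:15375774-15376073, minus strand): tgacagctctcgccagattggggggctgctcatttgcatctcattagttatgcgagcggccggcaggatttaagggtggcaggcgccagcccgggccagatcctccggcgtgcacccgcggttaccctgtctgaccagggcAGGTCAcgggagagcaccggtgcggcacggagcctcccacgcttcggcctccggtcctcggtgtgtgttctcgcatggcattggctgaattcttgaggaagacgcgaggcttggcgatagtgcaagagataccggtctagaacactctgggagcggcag

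The Lfng window held the core in both orientations, with first bases 135 and 108 bases upstream of the start, and the second of these lay within the longer form. Hes5 held the longer form in both orientations, beginning 226 and 83 bases upstream. Hey2 also held it in both orientations, beginning 207 and 4 bases upstream. Nrarp, which was lower with retinoic acid by more than Hey2, held none of the 3 motifs. A pair of the longer form in a window was found in 0.256% of all windows. The Dll1 window printed here held AGGTCA at 109 bases upstream of its start, and the other Dll1 window held none of the 3 motifs. A match is a string of letters and not a measured binding site.

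The arrays carried kidney transcripts on every medium: Pax2, a transcription factor of the kidney lineage, stood at 10.56 with retinoic acid, 10.56 in serum-free medium and 10.77 in serum on the log2 scale of the deposited intensities. Median intensity over all probe sets was 84.7, 85.5 and 81.5 in the same order. The retinoic acid receptor gene Rarb, a direct retinoid target, was at 11.37, 8.43 and 10.41. Transcripts tied to the sex of the embryos differed too, with Xist at 9.79, 11.48 and 10.84 and the Y-linked gene Kdm5d at 8.40, 7.21 and 7.74, and their part in the results below was not tested. With 1 array per medium no difference has an error or a p-value, and the number of arrays limits the precision. Counts of higher and lower genes took those that differed by 2-fold or more, or by 1.5-fold or more, where the higher of both values reached a floor of 7.12 on the log2 scale (140 in intensity), the median over all genes and arrays. All 9 genes reached the floor in every comparison, and 8 did so on all 3 arrays, the exception being Dll1 in serum-free medium. Levels of single genes are not ranked against each other as amounts of RNA, since probe sets differ in how strongly they bind. Intensities summed over a marker list, given below for the order of media, are weighted towards the brightest probe sets for the same reason.

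**Figure D1:**
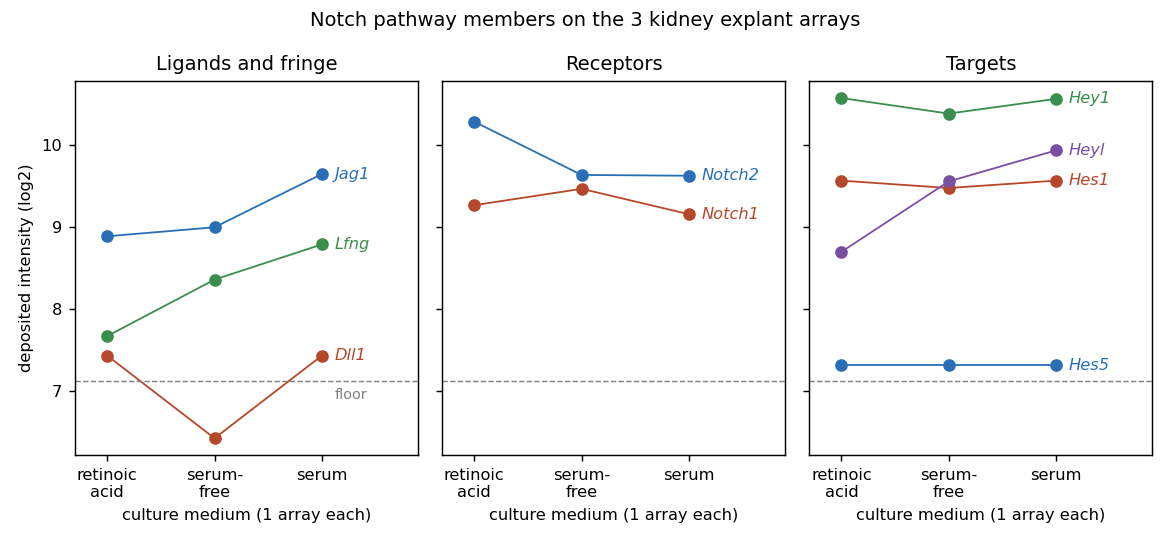
Deposited intensity (log2, vertical axis) of the 9 Notch genes on the array of each medium (horizontal axis), 1 point per array with lines only to guide the eye. The dashed line is the floor of 7.12. Jag1, Lfng and Heyl stand lowest with retinoic acid and highest in serum, Dll1 is lowest in serum-free medium (6.42), and Hes5 reads 7.31 throughout.

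The first comparison set retinoic acid against serum-free medium. Dll1 and Notch2 were higher with retinoic acid by 1.02 and 0.65 on the log2 scale, while Heyl and Lfng were lower, with differences of -0.86 and -0.69. The values for Jag1, Notch1, Hes1, Hes5 and Hey1 lay between -0.20 and 0.19. At 2-fold, 1 of the 9 genes was higher and 0 were lower, set beside 1.05% and 0.613% of the 10111 genes tested (1.66% in either direction). At 1.5-fold, 2 were higher and 2 were lower, against 2.41% and 1.94% of the tested genes (4.35% in either direction). The median difference was 0.00 over the 9 genes and 0.00 over all genes tested.

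Dll1 encodes a Delta-type ligand of the early nephron. Its intensity was 173 with retinoic acid, 85.3 in serum-free medium and 173 in serum. The retinoic acid and serum arrays gave exactly the same value, and the serum-free array stood apart below the floor. The fold change with retinoic acid over serum-free was 2.03, only just past 2-fold, and it ranked 102 from the highest among 10111 genes. Because the serum-free value lies under the floor, its size is uncertain: with 32 added to every intensity, which damps low values, the difference became 0.80, short of 2-fold.

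Jag1 encodes a Serrate-type ligand, whose intensity was 476 with retinoic acid, 512 in serum-free medium and 804 in serum. Both serum-free media were below serum and near each other. Retinoic acid against serum-free gave -0.10.

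Lfng encodes Lunatic fringe, which adds a sugar to Notch receptors and so changes which ligands activate them. It read 204 with retinoic acid, 328 in serum-free medium and 443 in serum. The order ran downwards from serum to retinoic acid, and the value with retinoic acid was 1.61-fold lower than in serum-free medium, at rank 150 from the lowest.

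Notch1 and Notch2 encode the receptors. Notch1 had an intensity of 618 with retinoic acid, 711 in serum-free medium and 571 in serum, a range of only 0.31 on the log2 scale. Notch2 read 1250 with retinoic acid, 799 in serum-free medium and 790 in serum. The retinoic acid array thus stood above both others for Notch2, 1.56-fold over serum-free, and the other arrays differed by 0.02.

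Among the targets, Heyl encodes a HEY-family repressor of vessels and early nephrons. Its intensity was 415 with retinoic acid, 755 in serum-free medium and 980 in serum. Its value with retinoic acid was 1.82-fold lower than in serum-free medium, at rank 94 from the lowest, and the arrays stood in the same order as for Lfng. Hey1, which encodes a HEY-family repressor as well, read 1536, 1344 and 1523 with retinoic acid, in serum-free medium and in serum, and its 3 values spanned 0.19.

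Hes1 encodes the most widely used HES repressor of the pathway. It read 762, 716 and 762 in the same order of media, with the retinoic acid and serum arrays at the same value. Hes5, a HES repressor strongly tied to Notch in neural and nephron precursors, read 159 on every array. Exactly equal values were common on these arrays. They made up 51.6% of all genes for retinoic acid and serum-free, 45.4% for serum-free and serum and 46.5% for retinoic acid and serum, so that an equal value is no measure of equal expression. Between retinoic acid and serum-free, Heyl thus differed by more than Hes1 (0.09) and Hey1 (0.19), and the equal value of Hes5 allows no such reading. Outside the 9 genes, 3 of 7 other targets that reached the floor were lower at 1.5-fold too, beside 1.94% of all genes tested.

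**Figure D2:**
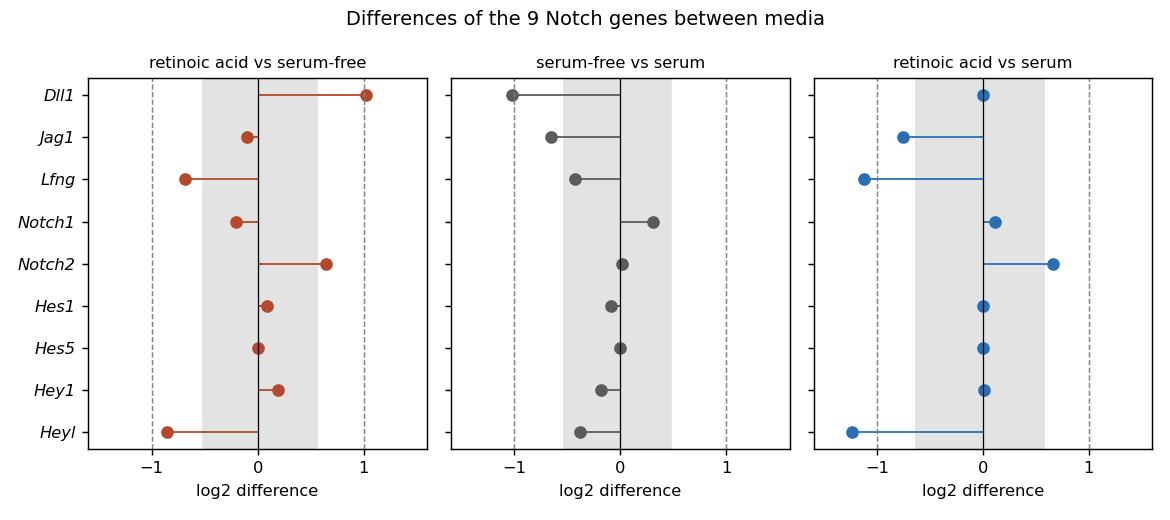
Log2 difference of each Notch gene (horizontal axis) in the 3 comparisons. Dashed lines mark 2-fold, and the grey band holds the central 95% of all genes tested in that comparison, from -0.52 to 0.56 for retinoic acid against serum-free, from -0.53 to 0.48 for serum-free against serum and from -0.63 to 0.58 for retinoic acid against serum. Dll1, Notch2, Lfng and Heyl lie outside the band in the first comparison.

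The second comparison set serum-free medium against serum. In serum-free medium, Dll1 was 2.03-fold lower than in serum (85.3 against 173) and Jag1 was 1.57-fold lower (512 against 804). Lfng and Heyl differed in the same direction by -0.43 and -0.38, and Notch1 by 0.31 in the other. Notch2, Hes1, Hes5 and Hey1 were between -0.18 and 0.02. At 2-fold, 0 of the 9 genes were higher and 1 was lower, where 0.876% and 0.699% of 10156 genes were (1.58% in either direction). At 1.5-fold, 0 were higher and 2 were lower, against 2.01% and 2.07% (4.08% in either direction). The median was -0.18 over the 9 genes, with 6 below 0, and 0.00 over all genes tested. With 32 added to the intensities Dll1 differed by -0.80, short of 2-fold.

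The third comparison set retinoic acid without serum against serum. Heyl was 2.36-fold lower with retinoic acid (-1.24), at rank 46 from the lowest of 10169 genes, and Lfng was 2.17-fold lower (-1.12), at rank 62. Jag1 was 1.69-fold lower (-0.76), and Notch2 was 1.58-fold higher (0.66). Dll1, Hes1 and Hes5 had exactly equal values on both arrays, Hey1 differed by 0.01 and Notch1 by 0.11. At 2-fold, 0 of the 9 genes were higher and 2 were lower, where 1.04% and 0.816% of all genes tested were (1.86% in either direction). At 1.5-fold, 1 was higher and 3 were lower, against 2.46% and 2.84% (5.3% in either direction). The median was 0.00 over the 9 genes and -0.01 over all genes tested. The 3 comparisons share arrays, so the values of a gene in any pair of them fix its value in the last.

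**Figure D3:**
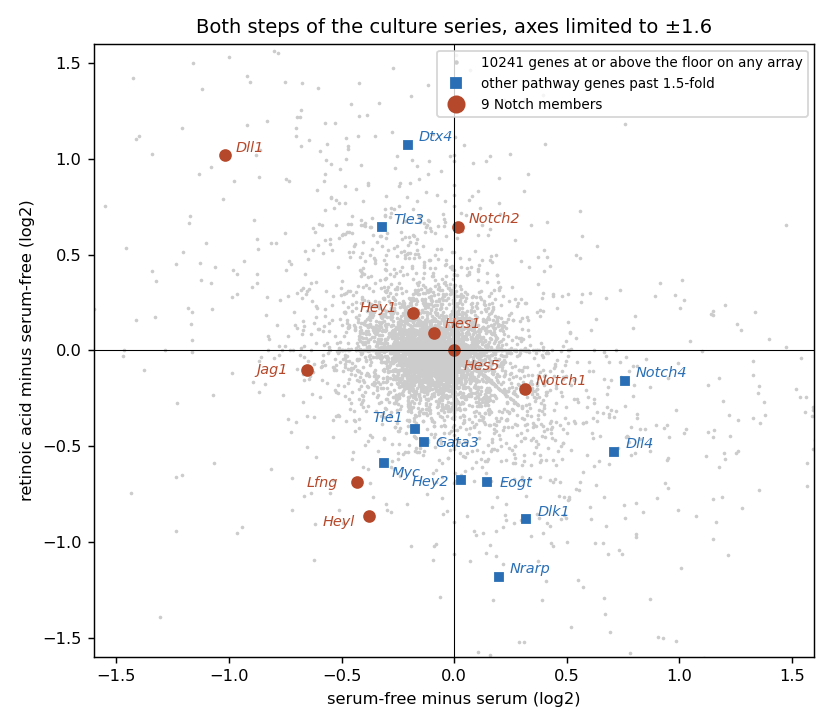
Difference between serum-free and serum (horizontal axis, log2) against difference between retinoic acid and serum-free (vertical axis, log2), 1 point per gene. Both axes use the serum-free array, which by itself tilts the grey cloud of all genes downwards to the right, and genes beyond 1.6 on either axis are not drawn. Lfng and Heyl lie at the lower left, Dll1 at the upper left and Notch2 at the top centre.

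By the pair of differences just plotted, the genes nearest to the members were looked up among 9946 genes, with the distance on the log2 scale and over 3 arrays only. For Heyl they were Nr4a1, an immediate early nuclear receptor gene (distance 0.082), Fam149a (0.097) and the collagen prolyl hydroxylase subunit gene P4ha3 (0.098). For Lfng they were Plpp4 (0.058), the secreted Wnt modulator gene Sfrp2 (0.083) and the orphan receptor gene Gpr176 (0.083). Dll1 was nearest to Aldh1a1, which encodes a retinaldehyde dehydrogenase (0.084), Car3 (0.139) and Abcc4 (0.141). Jag1 was nearest to Mmp23 (0.027), the small nucleolar RNA gene Snora21 (0.027) and Shmt2, a gene of mitochondrial one-carbon metabolism (0.029).

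Other pathway genes were listed by role, 68 in all, of which 64 were measured and 4 were not analysed here. In retinoic acid against serum-free, 54 of them reached the floor, of which 1 was higher by 2-fold or more and 1 was lower, beside 1.05% and 0.613% of all genes tested. At 1.5-fold 2 were higher and 5 lower, beside 2.41% and 1.94%. For serum-free against serum 54 reached the floor, with 2 higher and 0 lower at 1.5-fold, beside 2.01% and 2.07%, and 0 in either direction at 2-fold, beside 1.58%. For retinoic acid against serum 53 did, with 2 higher and 5 lower at 1.5-fold, beside 2.46% and 2.84%, and 0 in either direction at 2-fold, beside 1.86%. The median difference was 0.00 in each comparison.

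Of the 11 other targets measured, 7 reached the floor in each comparison, and 0 of these were higher at 1.5-fold in any. With retinoic acid 3 of the 7 were lower than in serum-free medium, beside 1.94% of all genes tested, and 4 of the 7 were lower than in serum, beside 2.84%. Nrarp, which encodes a small inhibitor induced by Notch as feedback, had the largest difference among them. It read 185 with retinoic acid, 419 in serum-free medium and 366 in serum. Only the retinoic acid array was low, 2.27-fold below serum-free and 1.98-fold below serum. Hey2, a HEY repressor of arterial endothelium, read 321, 514 and 504 in the same order of media, with differences of -0.68 for retinoic acid against serum-free and -0.65 for retinoic acid against serum. Myc, which encodes a growth regulator and is a Notch target in T cells, read 1290, 1938 and 2406, with differences of -0.59 for retinoic acid against serum-free and -0.90 for retinoic acid against serum. Gata3, a ureteric bud transcription factor gene listed here as a target known from T cells, was 1.53-fold lower with retinoic acid than in serum (1035 against 1580). Ccnd1, which encodes cyclin D1, read 3077, 3438 and 4607, with -0.58 for retinoic acid against serum, just inside 1.5-fold. Hes2, Hes3, Hes7 and Bhlhe41 stayed under the floor on every array.

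Among the other ligands and receptors, Dll4, the Delta ligand of arterial endothelium, read 410 with retinoic acid, 592 in serum-free medium and 362 in serum. Notch4, an endothelial receptor gene, read 499, 557 and 329 in the same order. Both were higher without serum, Dll4 by 1.64-fold and Notch4 by 1.69-fold for serum-free over serum, and Notch4 was also 1.51-fold higher with retinoic acid than in serum. Dlk1, which encodes a Delta-like protein that lacks the domain for Notch activation, read 2085, 3842 and 3076, and was 1.84-fold lower with retinoic acid than in serum-free medium. Notch3, the receptor gene of mural cells, read 442, 442 and 432. Jag2 differed by at most 0.36 in any comparison, and Dll3, Dlk2 and Dner were under the floor throughout.

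The machinery shared by Notch signals was listed by step. Of 8 measured cleavage genes, which encode the proteases that cut the receptor, 0 reached 1.5-fold in any comparison, where 4.08% to 5.3% of all genes did, so the count is near the background. Psenen, a gamma-secretase subunit gene, read 6383, 6440 and 6525 with retinoic acid, in serum-free medium and in serum. The 6 genes of ligand endocytosis had differences from -0.03 to 0.02 in all comparisons, and 5 of the 6 had equal values in each. Epn1 read 675 and Rbpj 981 on every array, which, as for Hes5, is no measure of equal expression. The coactivator gene Ep300 read 1555, 1405 and 1208, within 1.5-fold. Of the glycosylation genes, Eogt, which encodes an enzyme that adds N-acetylglucosamine to Notch, was 1.61-fold lower with retinoic acid than in serum-free medium (361 against 580), and Poglut1 differed by at most 0.18 in size. Mfng and Rfng, the other fringe genes, differed by at most 0.14 in size between any media.

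Genes of receptor turnover and repression held the largest increase. Dtx4, which encodes a Deltex ubiquitin ligase acting on Notch, read 700 with retinoic acid, 333 in serum-free medium and 383 in serum. The retinoic acid array stood above both others, 2.10-fold over serum-free and 1.83-fold over serum. Cul3, a ubiquitin ligase scaffold gene, differed by at most 0.03 in size. Of the Groucho-type corepressor genes, Tle3 read 1716, 1099 and 1373, 1.56-fold higher with retinoic acid than in serum-free medium, and Tle1 read 371, 493 and 556, with -0.59 for retinoic acid against serum. The corepressor gene Ctbp1 differed by at most 0.03 in size.

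**Figure D4:**
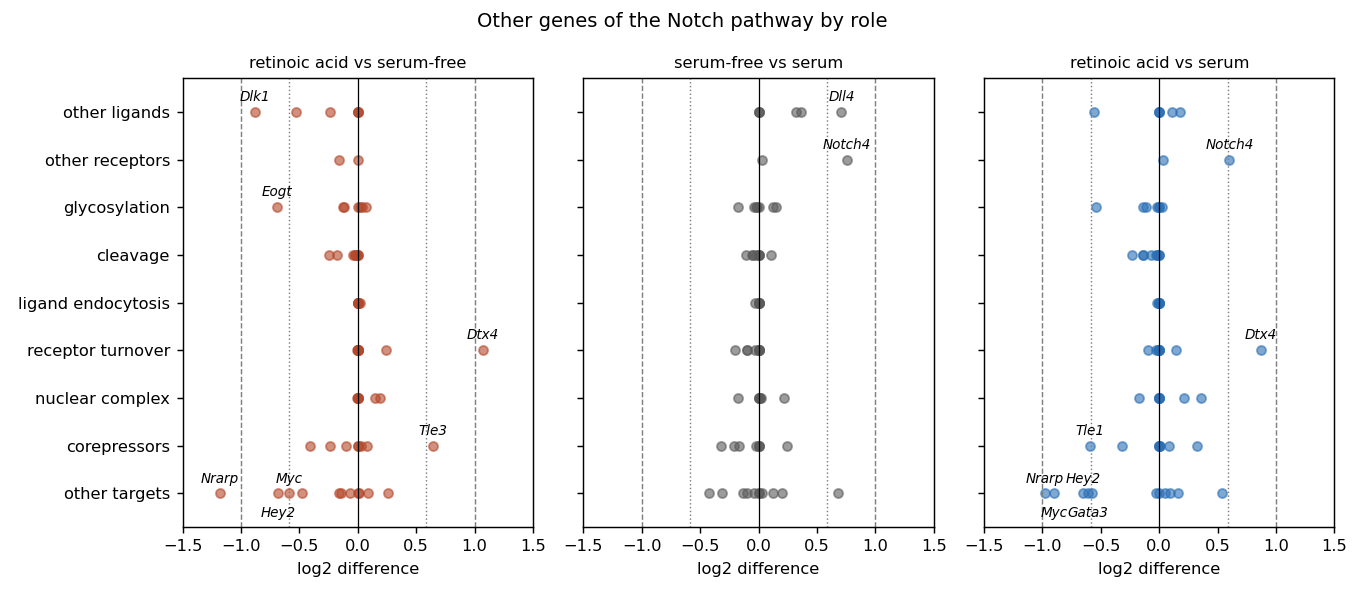
Log2 difference (horizontal axis) of the 64 other Notch pathway genes, 1 point per gene, in rows by role and in 1 panel per comparison. Dotted lines mark 1.5-fold and dashed lines 2-fold, and genes past 1.5-fold with the higher value at or above the floor are named. Nrarp (-1.18) and Dtx4 (1.07) stand farthest from 0 with retinoic acid against serum-free, and most points lie close to 0.

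Notch genes are read here from whole explants, in which fewer cells of a type and less RNA per cell cannot be told apart, so marker lists without the 9 genes are set beside them. The smooth muscle list had the same order of media in its sum as Jag1, Lfng and Heyl, and 7 of its 13 genes followed it. The summed intensity over 13 genes was 3611 with retinoic acid, 5993 in serum-free medium and 12237 in serum, and Acta2 made up the largest portion, at 843, 2211 and 5468. Between retinoic acid and serum, 5 of the 9 that reached the floor were lower at 2-fold, beside 0.816% of all genes tested. The largest differences were those of Cnn1, at 54.7, 111 and 745, Actg2, at 51.0, 134 and 610, and Tagln, at 92.0, 229 and 865. Cnn1 and Actg2 reached the floor only in serum, and Tagln was under it with retinoic acid. These genes and Myl9, which read 559, 879 and 2032, kept that order. Tpm2 read 374, 720 and 633, Smtn 525, 521 and 601 and Des 624, 644 and 624, and did not keep it. Of the others, Myh11, Myocd, Lmod1 and Synpo2 were under the floor on every array. The part of these cells in the values of Jag1, Lfng and Heyl was not tested.

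Endothelial markers had a summed intensity over 19 genes of 12304 with retinoic acid, 14934 in serum-free medium and 10741 in serum, the order seen for Dll4 and Notch4, which 11 of the 19 followed. Cdh5, the endothelial cadherin gene, read 2598, 3321 and 1892. With retinoic acid against serum-free, 17 of the 19 differences were below 0 with a median of -0.24. Of the vessel-linked targets, Nrarp was at -1.18, Heyl at -0.86 and Hey2 at -0.68, while Hey1 went the other way, at 0.19. The connexin gene Gja5 was the only endothelial marker past 1.5-fold in that comparison, at -1.89. With retinoic acid against serum, 13 of the 19 were above 0 with a median of 0.13. In that comparison Nrarp was at -0.98, Heyl at -1.24, Hey2 at -0.65 and Hey1 at 0.01. The part of the endothelium in these values was not tested.

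Early nephron markers without the 9 genes summed to 10483 with retinoic acid, 9335 in serum-free medium and 13960 in serum over 18 genes, lowest in the medium in which Dll1 was lowest. At 2-fold, 7 of the 16 that reached the floor were lower in serum-free medium than in serum, beside 0.699% of all genes tested. With retinoic acid against serum-free, 3 of 15 were higher, beside 1.05%. With retinoic acid against serum, 15 of the 18 were below 0, and 1 of 16 was lower at 2-fold, beside 0.816%. At 1.5-fold, 8 of the 16 were lower in that comparison, beside 2.84%, and 0 were higher. Wnt4, the inducer of nephron epithelium, read 484, 180 and 485 in the order of retinoic acid, serum-free and serum. Lhx1 read 269, 111 and 420, and Papss2 282, 114 and 425. Dkk1, a Wnt inhibitor gene of the same list, ran instead like Lfng and Heyl, at 233, 451 and 879. The early nephron list thus held genes of both patterns. Serum-free medium was lowest for 10 of its 18 genes, and a sum lowest there was not particular to this list. Ureteric bud markers summed to 15170, 10434 and 16490 in the same order of media, with 11 of 17 lowest in serum-free medium. Stromal markers summed to 24760, 18962 and 21510, with 6 of 16 lowest there. That sum includes Ecm1, at 5857, 144 and 1021, and Rarb, at 2655, 344 and 1361. The stromal median for retinoic acid against serum-free was 0.04, so the order of the sum does not describe most of the list. The part of these lists in the Notch values was not tested.

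Macrophage markers summed to 10121, 14318 and 4980 over 18 genes with retinoic acid, in serum-free medium and in serum, and among the 9 genes Notch1 followed that order, which is also the order of the endothelial sum. Proliferation genes summed to 16575, 16412 and 18856 over 11 genes, and 0 of them reached 1.5-fold in any comparison, where 4.08% to 5.3% of all genes did. For serum-free against serum, all 11 were below 0, with a median of -0.21. For retinoic acid against serum, 9 were below 0, also with a median of -0.21. Between retinoic acid and serum-free, 6 were above 0 and 5 below.

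**Figure D5:**
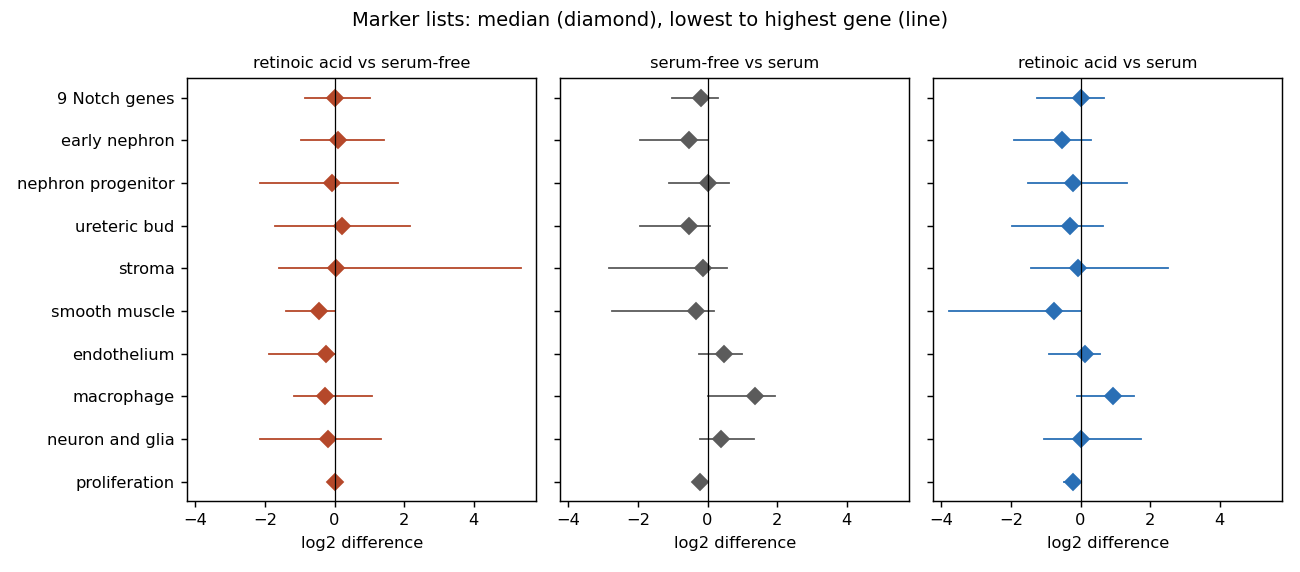
Log2 difference (horizontal axis) of the 9 Notch genes and of 9 marker lists, with the median as a diamond and a line from the lowest to the highest gene, in 1 panel per comparison. The smooth muscle median is -0.44, -0.32 and -0.76 across the panels, and the endothelial median is -0.24, 0.48 and 0.13. Genes under the floor are included. Over the genes that reached it, the smooth muscle medians are -0.65, -1.21 and -1.86, and the endothelial medians -0.24, 0.49 and 0.13.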

How the data were processed

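Kidney explant RNA, 250 ng per sample per the labels, was measured on 1 array per medium. The authors deposited linear-scale intensities per probe set, made with Affymetrix Expression Console 1.1 and RMA per the submitters' processing notes. RMA, as commonly defined, subtracts background, equalises the arrays by quantiles and summarises probes by median polish. No settings are given in the sources used here. Columns were matched to media by sample name. Of 35556 probe sets, 21789 carried 1 gene symbol in the platform annotation, and a gene with several was represented by that with the highest mean.

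From the log2 of the deposited intensity, with no pseudocount, differences between media were taken and counted at 2-fold and 1.5-fold with the floor described above. No test was run, as there were no replicates. The procedure was tested on simulated data. Python 3.11.15, pandas 2.3.3 and, for cyclic loess, limma 3.58.1 were used.

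The 9 genes and the lists were chosen with earlier results of these data known. Named were the 9 genes, pathway genes past 1.5-fold, the gene with the highest mean of each pathway list, and up to 4 markers of a list with the largest differences. Nearest genes, 3 for each of the 4 members with the largest range, leave out gene models. Other genes, among them Rbpj, Pax2, Myl9, Cdh5, Notch3 and those under the floor, and the lists of the closing section were added after their values were seen.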

Additional observations from a re-analysis of the deposited data

How the results depend on the processing

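Signal over background cannot be judged beyond the floor, since the deposited file holds no detection calls. Over the 9 genes, none of 81 differences under 3 alternatives (32 added to the intensities, cyclic loess, median centring) moved by more than the disagreement between probe sets of 1 gene, which had a 95th percentile of 0.27, 0.28 and 0.33 on the log2 scale in the 3 comparisons. The same held for 99 differences of the 11 other pathway genes past 1.5-fold. The mean over probe sets could change none of these, as each gene had 1, and removing or lowering the floor could not change the counts of the 9 genes, which all reached it. Rescaling shifted the median of all genes by -0.069 to 0.014. Median centring moves every gene of a comparison by the same amount, so it could not have passed the limit set by that disagreement. With 32 added to the intensities, the 2-fold count over the 9 genes became 0 for retinoic acid against serum-free and 0 for serum-free against serum, each against 1 as deposited, because Dll1 came to 0.80 and -0.80. At 1.5-fold in place of 2-fold, the counts were 4 against 1 for retinoic acid against serum-free, 2 against 1 for serum-free against serum and 4 against 2 for retinoic acid against serum, since a smaller size was asked for. For the other pathway genes they were 7 against 2, 2 against 0 and 7 against 0 in the same order. Median centring put Nrarp past 2-fold in retinoic acid against serum, which made that count 1. The other counts under the first 3 alternatives, and those of the other pathway genes with no floor or a floor at the 25th percentile, were equal to those as deposited. No paired analysis was possible because there was 1 array per medium.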

Other observations

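Arterial markers, a list added after the values were seen, were mostly a little lower with retinoic acid than in serum-free medium. Of 12 genes, 11 had differences below 0. Of the 10 that reached the floor, 2 were lower at 1.5-fold, beside 1.94% of all genes tested. These were Gja5, at 251 with retinoic acid, 931 in serum-free medium and 468 in serum, and the hypoxia-inducible factor gene Epas1, at 535, 945 and 622. The lower values were not particular to arterial markers. The endothelial list, which also holds Gja5, had 17 of 19 genes below 0 and a median of -0.24, against -0.15 for the arterial list. The arterial ephrin gene Efnb2 differed by 0.16, and the venous receptor gene Ephb4 by 0.13. Of 6 venous markers, 0 reached 1.5-fold in that comparison, where 4.35% of all genes did. Of 9 measured mural cell genes, 6 were below 0 in the same comparison and 2 were lower at 1.5-fold, beside 1.94% of all genes tested. These were Pdgfrb, at 1333, 2141 and 2012, and Rgs5, at 451, 688 and 837, in the same order of media.

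Of 10 measured bHLH and Id genes, a list that holds factors HES proteins are known to repress, only Id1, Id2, Id3 and Id4 reached the floor. Past 1.5-fold were 0 of these 4 in any comparison, where 4.08% to 5.3% of all genes were. The count is near that background. Neurog1, Neurog2, Neurog3, Atoh1, Neurod1 and Neurod4 were under the floor on every array, so the count does not cover them. Of 12 measured genes of proximal tubules and podocytes, segments that depend on Notch2 in the mouse, 7 were under the floor on every array, Hnf4a, Cubn and Nphs1 among them. Of the 5 that reached the floor, 1 was higher at 1.5-fold with retinoic acid than in serum-free medium, beside 2.41% of all genes tested. For serum-free against serum 1 was lower, beside 2.07%, and for retinoic acid against serum 1 was lower, beside 2.84%. The lowest differences there were -0.65 and -0.80. Foxc2, a transcription factor gene of nephron progenitors and podocytes, had log2 intensities of 11.26 with retinoic acid, 10.60 in serum-free medium and 11.13 in serum.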
